A study of Mus musculus with 10 samples.

Results

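Either defect of Apex1 is the group of 6 mouse lung libraries that keep no wild-type Apex1 allele once the Cre recombinase has acted, out of 10 libraries in the series. They were chosen by genotype alone, as 3 flox/flox and 3 flox/N211A libraries, and were set against the 4 flox/+ libraries over all genes, to find what both defects share in every library. In flox/flox both alleles are flanked by loxP sites, which Cre cuts between. In flox/N211A 1 allele is flanked in that way and the other carries the mutation N211A, and in flox/+ the other allele is wild type. All 3 genotypes were infected with an adenovirus that carries Cre, 12 wk of infection are labelled, and the lung cells are called premalignant. No other allele, no promoter that limits Cre to a cell type, no age and no way of sorting the cells is given in the sources used here. Each library came from about 500 cells by a modified SMART-Seq2 protocol, which copies and amplifies whole transcripts. How far Cre removed the flanked alleles in each library is not known.

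Apex1 encodes APE1, the main enzyme that cuts DNA at a site that has lost its base, after a glycosylase has removed a damaged or misplaced base. DNA polymerase beta then fills the gap and a ligase seals it, which completes base excision repair. APE1 also has a redox domain that affects the DNA binding of some transcription factors. The N211A mutation replaces an asparagine of the protein by an alanine. In the lung, alveolar type II cells make surfactant and club and ciliated cells line the airways.

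Libraries differed in ways that genotype does not cover. Total counts ran from 10672334 to 53678659 in flox/flox, from 8955368 to 17070817 in flox/N211A and from 13221853 to 17707731 in flox/+. Of 25277 genes in the table, 13464 had enough counts to be tested. The share of tested genes without a read was 34.2% in flox/flox replicate 2 and lay between 2.82% and 16.6% in the remaining 9. Rank correlations of counts with flox/flox replicates 2 or 3 lay between 0.560 and 0.665, and those among the other 8 libraries between 0.660 and 0.898. Xist lay below the Y-linked genes in flox/flox replicate 2 and flox/+ replicates 2 and 4 and above them in the other 7, so that sex was not balanced over the genotypes. Lung epithelial transcripts were present throughout. The surfactant gene Sftpc stood at 11531 to 37466 CPM in the 6 defect libraries and 33544 to 145740 CPM in flox/+, and the club cell gene Scgb1a1 at 39180 to 240250 CPM and 25076 to 152540 CPM in the same order. CPM are read counts scaled to the size of the library. The leukocyte gene Ptprc was at 0 counts in 4 of the 6 defect libraries and 2 of the 4 flox/+ libraries, with at most 7.64 CPM in any. Nothing in the labels ties replicates to separate animals, so the p-values measure the spread between these samples, and how much of it is technical is not known. Sex differed within flox/flox and within flox/+, so the libraries of either did not all come from the same animal. In flox/N211A all libraries had Xist above the Y-linked genes.

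Apex1 itself (chr14:50924968-50927139, plus strand, GRCm38) was read first. It had 6.02, 0 and 0.573 CPM in flox/flox replicates 1 to 3, 7.86, 12.9 and 6.45 CPM in flox/N211A, and 4.12, 15.9, 35.9 and 54.1 CPM in flox/+. Flox/+ replicate 1 lay below flox/flox replicate 1 and below all flox/N211A libraries, so the groups overlapped. The mean over both defects was 5.63 ± 4.81 CPM (SD, n = 6), against 27.5 ± 22.1 CPM in flox/+ (SD, n = 4). The mean of both defects over flox/+, as a log2 fold change of -2.62 with an SE of 1.28, did not pass (edgeR adjusted p = 0.705). Which exons Cre removes is not given, counts over the whole gene include the parts outside them, and a point mutation such as N211A does not take its allele out of the count. The gene overlaps Pip4p1 on the other strand, and without a stated strand setting reads of the pair cannot be told apart.

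Across all genes 1 passed the test of both defects against flox/+, and it was lower. This test took the mean of the flox/flox and flox/N211A effects in edgeR's quasi-likelihood model at an adjusted p under 0.05. The 1 gene called is 0.00743% of the genes tested, and 0 genes (0%) were called higher. At an unadjusted p under 0.05 there were 972 genes, or 7.22%, with 298 higher (2.21%) and 674 lower (5.01%). DESeq2 called 229 of 13464 genes, 46 higher and 183 lower, and limma voom called 0, with 748 at an unadjusted p under 0.05. For 956 of the 13464 genes DESeq2 gave no adjusted p. The spread between libraries was wide, with a biological coefficient of variation of 1.24 in the common dispersion.

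The gene called was Tnfsf9, which encodes the ligand of the T cell costimulatory receptor 4-1BB (chr17:57105325-57107757, plus strand). It had 0 counts in all 3 flox/flox libraries, 13.9, 4.91 and 7.43 CPM in flox/N211A, and 15.2, 11.8, 168 and 607 CPM in flox/+. Flox/N211A replicate 1 stood above flox/+ replicate 2, so Tnfsf9 did not separate every library. The fitted log2 fold change of both defects was -9.62 (SE 1.29, edgeR adjusted p = 0.0469), a value that depends on the prior count because flox/flox was at 0. Flox/flox was at least 975-fold lower than flox/+ with 3 counts per library as the limit that a count of 0 allows, which covers counting error only. For flox/N211A alone it was -4.52 (SE 1.29), and the difference between flox/flox and flox/N211A did not pass (edgeR adjusted p = 0.266). The call was lost without flox/+ replicate 4 (adjusted p = 0.775) or 3 (0.252), without flox/N211A replicate 1 (0.126), 2 (0.270) or 3 (0.215), and without flox/flox replicate 3 (0.0524). It held in 9 of 22 alternatives, and a lincRNA, Gm11110, overlaps the gene on the other strand.

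**Figure D1:**
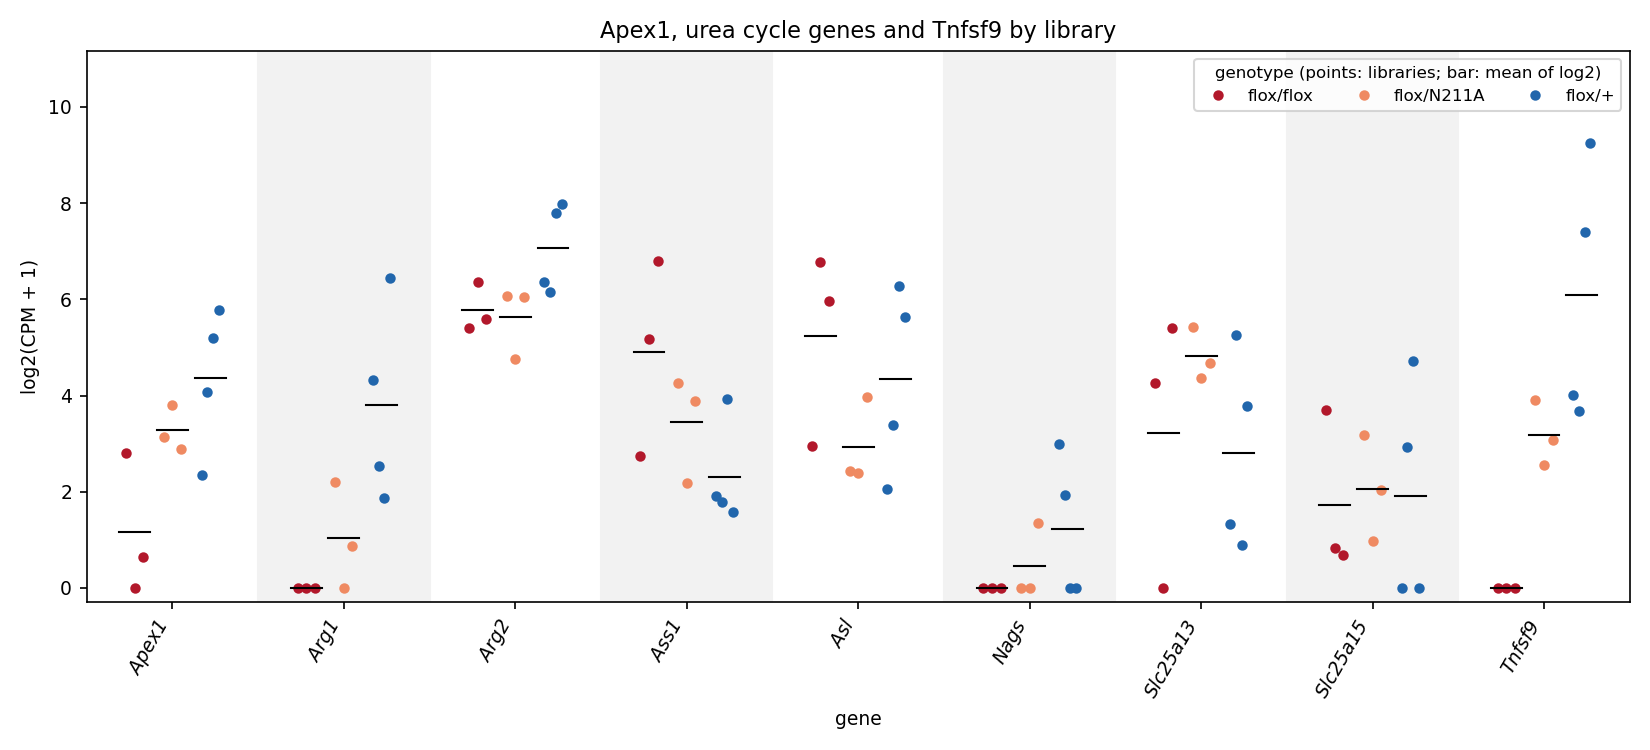
Level of Apex1, the 7 urea cycle genes tested and Tnfsf9 in each library as log2(CPM + 1), with flox/flox, flox/N211A and flox/+ from left to right for each gene, points for libraries and a bar for the mean of the log2 values. Tnfsf9 and Arg1 were at 0 counts in the 3 flox/flox libraries, and for every gene shown the ranges of the 6 defect libraries and the 4 flox/+ libraries overlap.

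A stricter reading of the question is whether a gene stands on 1 side of flox/+ in every library of both defects. All 6 defect libraries lay above all 4 flox/+ libraries for 70 genes, or 0.52% of those tested, and below all of them for 80 genes, or 0.594%. Together these are 150 genes, or 1.11%. Each single gene of this kind has an exact two-sided permutation p of 0.00952, the smallest that 6 against 4 libraries allows, before any adjustment over genes, and nothing is read from the number of such genes. At an unadjusted edgeR p under 0.05 there were 46 of the 70 and 34 of the 80, beside 2.21% of all genes higher and 5.01% lower. Genes chosen for separation of these same libraries tend to have a small p, so nothing is read from these counts. DESeq2 called 33 of the 150, on the same counts that chose them, beside 229 of all 13464 genes tested. Nothing is read from that number either. None of the 150 had an edgeR adjusted p under 0.05 in the main test. The genes named from here on are therefore described by their values and none is said to have risen or fallen. Most separations were narrow. The lowest defect library was at least 2-fold above the highest flox/+ library for 4 of the higher genes, and the lowest flox/+ library at least 2-fold above the highest defect library for 3 of the lower genes. Protein-coding genes made up 67 of the 70 and 75 of the 80. The list of 150 was drawn from these same libraries, so the size of its differences is a description.

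Among the genes that stood higher in both defects were enzymes that handle foreign and lipid-soluble compounds. The smallest p belonged to Cyp2a5, a cytochrome P450 that oxidises coumarin and nicotine (chr7:26835305-26843548, plus strand). It had 349, 137 and 238 CPM in flox/flox, 241, 153 and 174 CPM in flox/N211A, and 8.61, 72.0, 49.5 and 20.6 CPM in flox/+. The nearest pair of libraries, flox/flox replicate 2 and flox/+ replicate 2, differed 1.91-fold. Means were 215 ± 78.3 CPM (SD, n = 6) and 37.7 ± 28.6 CPM (SD, n = 4), and the log2 fold change of 2.50 (SE 0.59, edgeR adjusted p = 0.424) did not pass. It was 2.68 (SE 0.64) in flox/flox and 2.33 (SE 0.63) in flox/N211A, the closest match between the defects among the genes described in this paragraph. Its close copy Cyp2a4, with which it may share reads, had at most 5.47 CPM in any library. Ces1d, a carboxylesterase of a clustered family (chr8:93166068-93197838, minus strand), had 980, 510 and 984 CPM in flox/flox, 638, 575 and 375 CPM in flox/N211A, and 170, 362, 292 and 158 CPM in flox/+. Only a narrow step separates flox/N211A replicate 3 from flox/+ replicate 2 there, at a ratio of 1.03. Aldh1a1, which makes retinoic acid from retinaldehyde and belongs to the club cell list, had 1477, 1455 and 1557 CPM in flox/flox, 1116, 1290 and 1053 CPM in flox/N211A, and 303, 947, 944 and 289 CPM in flox/+. The log2 fold changes of Ces1d and Aldh1a1 were 1.43 (SE 0.40, edgeR adjusted p = 0.618) and 1.08 (SE 0.42, adjusted p = 0.630). Sqle, the squalene epoxidase of sterol synthesis, had 238, 150 and 134 CPM in flox/flox, 91.5, 108 and 99.1 CPM in flox/N211A, and 83.7, 83.2, 33.5 and 21.2 CPM in flox/+, again without overlap.

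Several genes known from cilia or flagella also stood higher, and are given here with coiled-coil and repeat proteins of less certain role. Cdhr3, a cadherin-like protein of ciliated airway cells and in humans the receptor of rhinovirus C (chr12:33033796-33092875, minus strand), had 692, 545 and 1404 CPM in flox/flox, 254, 319 and 232 CPM in flox/N211A, and 79.4, 231, 202 and 108 CPM in flox/+. Flox/N211A replicate 3 and flox/+ replicate 2 lie almost level, so the wider difference lies in flox/flox. Its log2 fold change came to 1.65 (SE 0.44, edgeR adjusted p = 0.618), with 2.50 (SE 0.50) in flox/flox and 0.79 (SE 0.48) in flox/N211A. Stk33, a kinase needed for sperm flagella in mice (chr7:109279223-109439081, minus strand), had 167, 148 and 135 CPM in flox/flox, 91.4, 92.2 and 76.2 CPM in flox/N211A, and 19.4, 44.8, 39.0 and 8.66 CPM in flox/+. The 3 genotypes fall in 3 separate ranges, with flox/flox highest and flox/+ lowest. Its log2 fold change came to 2.03 (SE 0.55, edgeR adjusted p = 0.618). The antisense gene 1700095J03Rik overlaps Stk33 on the other strand. Fhad1, a protein with a forkhead-associated domain, had 257, 454 and 472 CPM in flox/flox, 193, 142 and 120 CPM in flox/N211A, and 87.4, 103, 101 and 71.6 CPM in flox/+. Ttc29, a tetratricopeptide protein of the sperm flagellum, had 145, 141 and 173 CPM in flox/flox, 83.5, 49.7 and 60.6 CPM in flox/N211A, and 35.3, 49.7, 24.3 and 30.6 CPM in flox/+. Its separation is a near tie, since flox/N211A replicate 2 and flox/+ replicate 2 both stood at 49.7 CPM. Fam161a, a centrosome and cilium protein whose human gene is mutated in retinitis pigmentosa, had 79.6, 59.4 and 309 CPM in flox/flox, 68.9, 68.0 and 36.7 CPM in flox/N211A, and 21.7, 24.8, 17.2 and 28.7 CPM in flox/+. Iqca, a protein with IQ motifs, ran from 102 to 484 CPM in the defects and from 60.05 to 101 CPM in flox/+. Fam216b ran from 113 to 608 CPM in the defects against 53.97 to 87.4 CPM in flox/+, and Ccdc62, a coiled-coil protein, from 8.27 to 34.9 CPM against 0 to 4.39 CPM. Log2 fold changes of Fhad1, Ttc29, Fam161a, Iqca, Fam216b and Ccdc62 lay between 1.35 and 3.13, with adjusted p from 0.618 to 0.685.

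Carriers and membrane proteins included genes with wide gaps between the groups. Lmbrd2, a membrane protein with an LMBR1 domain (chr15:9140550-9202483, plus strand), had 25.1, 12.7 and 48.5 CPM in flox/flox, 15.2, 20.6 and 15.2 CPM in flox/N211A, and 0.374, 3.64, 0.132 and 1.17 CPM in flox/+. Its lowest defect library stood 3.50-fold above the highest flox/+ library, and its log2 fold change came to 4.05 (SE 1.33, edgeR adjusted p = 0.630). Skp2 overlaps it on the other strand. Slc16a11, a carrier of the monocarboxylate family (chr11:70212752-70216417, plus strand), had 54.5, 21.9 and 69.1 CPM in flox/flox, 17.2, 14.4 and 30.8 CPM in flox/N211A, and 3.97, 6.20, 3.24 and 3.66 CPM in flox/+. The flox/+ libraries sat close together and the nearest ratio was 2.32 (log2 fold change 2.89, SE 0.91, edgeR adjusted p = 0.622). Vapb, which tethers the endoplasmic reticulum to other membranes, had 25.5, 10.9 and 18.0 CPM in flox/flox, 22.8, 24.6 and 14.7 CPM in flox/N211A, and 1.497, 4.78, 2.91 and 1.72 CPM in flox/+. Both defects lay in the same range for Vapb, with log2 fold changes of 2.73 (SE 1.24) in flox/flox and 2.92 (SE 1.25) in flox/N211A. Slc4a8, a sodium-driven chloride and bicarbonate exchanger, had 38.4, 17.0 and 133 CPM in flox/flox, 32.0, 31.2 and 25.2 CPM in flox/N211A, and 9.36, 5.11, 6.69 and 5.55 CPM in flox/+. Tbc1d30, a GTPase-activating protein for Rab proteins, ran from 23.2 to 172 CPM in the defects against 11.5 to 13.9 CPM in flox/+, the tightest control range of the genes in this paragraph relative to its level.

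The others that stood higher have varied roles. Gas6, the ligand of the receptors Tyro3, Axl and Mertk (chr8:13465374-13494490, minus strand), had 103, 185 and 424 CPM in flox/flox, 86.9, 62.5 and 78.7 CPM in flox/N211A, and 51.0, 47.1, 37.7 and 6.89 CPM in flox/+. Flox/flox again lay above flox/N211A and the log2 fold change came to 1.91 (SE 0.60, edgeR adjusted p = 0.618). Rif1, which holds back the resection of double-strand breaks together with 53BP1, ran from 64.1 to 181 CPM in the defects and from 37.6 to 61.7 CPM in flox/+. Uckl1os, annotated opposite Uckl1 and Zfp512b, ran from 18.1 to 177 CPM against 5.89 to 12.2 CPM. Where they overlap, its reads cannot be told from those of Uckl1 or Zfp512b without a strand setting. Of the 17 genes chosen by the smallest p or the widest gap in this direction, DESeq2 called 14, on the same counts that chose them. Over all genes tested it called 229 of 13464 in either direction, and the smaller number called higher is given above.

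**Figure D2:**
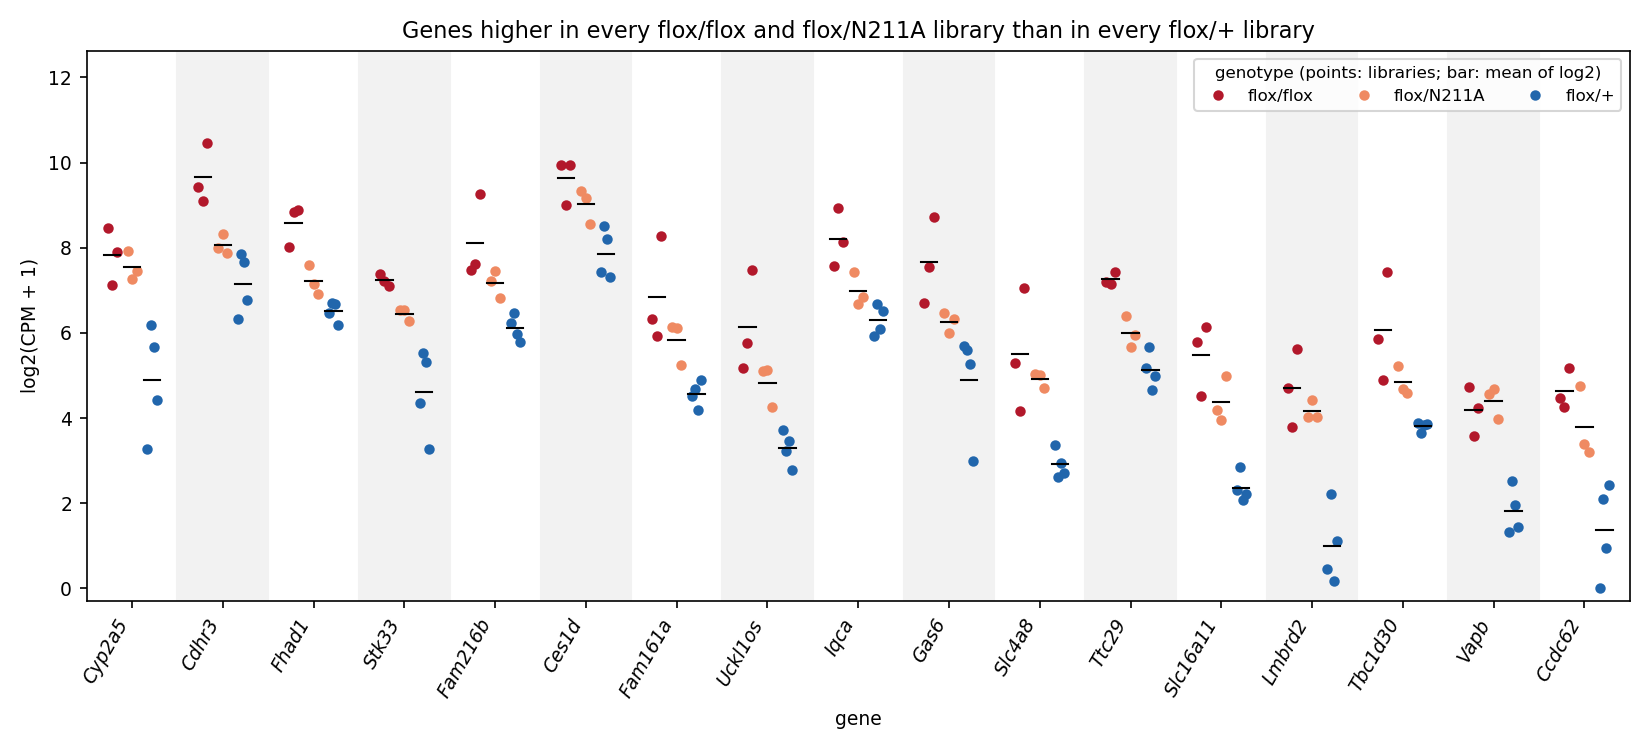
Level of the 17 genes named for standing higher in every defect library, as log2(CPM + 1) in each library, with flox/flox, flox/N211A and flox/+ from left to right for each gene and a bar for the mean of the log2 values. For Stk33 the 3 genotypes occupy separate ranges, for Vapb flox/flox and flox/N211A overlap, and for Cdhr3 and Ttc29 the lowest flox/N211A library is level with the highest flox/+ library.

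On the lower side the smallest p belonged to a receptor and the next to an enzyme that modifies sugars, and they are given here with an endocytic receptor farther down the order. Tnfrsf23, a mouse decoy receptor for the death ligand TRAIL (chr7:143665809-143685872, minus strand), had 0 counts in all flox/flox libraries, 8.68, 20.9 and 15.9 CPM in flox/N211A, and 69.7, 21.8, 34.4 and 35.4 CPM in flox/+. The closest pair, flox/N211A replicate 2 and flox/+ replicate 2, differed 1.04-fold. Flox/flox was at least 196-fold below flox/+, and flox/N211A averaged 15.2 ± 6.15 CPM (SD, n = 3) against 40.3 ± 20.5 CPM in flox/+ (SD, n = 4). The test of both defects gave an adjusted p of 0.168 with edgeR, and the difference between the defects one of 0.238. Its neighbour Tnfrsf22, chosen after its values were seen, was also at 0 counts in flox/flox, with 1.08, 0.180 and 2.103 CPM in flox/N211A and 23.1, 3.48, 0 and 11.7 CPM in flox/+, and so was not separated. St6galnac4, a sialyltransferase that extends O-linked sugars (chr2:32587095-32599698, plus strand), was at 0 in every flox/flox library and had 4.25, 0.300 and 6.31 CPM in flox/N211A, and 16.6, 8.97, 26.5 and 35.3 CPM in flox/+. Flox/flox was at least 106-fold below flox/+, flox/N211A stood between them, and the test of both defects gave an edgeR adjusted p of 0.424. Lrp2, the endocytic receptor megalin, had 15.2, 0.520 and 0.548 CPM in flox/flox, 30.3, 25.0 and 32.0 CPM in flox/N211A, and 54.7, 32.3, 65.0 and 198 CPM in flox/+.

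Lysozyme and several enzymes and carriers of lipid and aldehyde metabolism were among the lower genes as well. Lyz2, the lysozyme of macrophages and alveolar type II cells (chr10:117277331-117282321, minus strand), had 1770, 2082 and 5460 CPM in flox/flox, 3463, 4067 and 5701 CPM in flox/N211A, and 10330, 5837, 21711 and 9067 CPM in flox/+. Flox/+ replicate 2 lay just above flox/N211A replicate 3, at a ratio of 1.02. Means were 3757 ± 1650.1 CPM (SD, n = 6) and 11736 ± 6914 CPM (SD, n = 4), with a log2 fold change of -1.67 (SE 0.44, edgeR adjusted p = 0.618), and -1.92 (SE 0.56) in flox/flox and -1.41 (SE 0.55) in flox/N211A. Me1, the cytosolic malic enzyme that supplies NADPH for lipid synthesis (chr9:86581371-86695953, minus strand), had 37.8, 39.5 and 61.4 CPM in flox/flox, 99.9, 98.3 and 105 CPM in flox/N211A, and 279, 137, 155 and 182 CPM in flox/+. Its genotypes fell in 3 ranges without overlap (log2 fold change -1.46, SE 0.40, edgeR adjusted p = 0.618). Slc27a4, a fatty acid transport protein, was at 0 in every flox/flox library and had 3.16, 2.097 and 3.36 CPM in flox/N211A, and 10.6, 4.40, 22.9 and 6.72 CPM in flox/+, which puts flox/flox at least 54.3-fold below flox/+. Aldh1a3, a retinaldehyde dehydrogenase, had 0, 0 and 0.0249 CPM in flox/flox, 1.08, 0 and 0 CPM in flox/N211A, and 73.3, 5.81, 1.85 and 7.77 CPM in flox/+. Flox/+ replicate 1 carries most of that control mean. Gcsh, the H protein of the glycine cleavage system, ran from 0.0249 to 17.0 CPM in the defects against 30.8 to 67.7 CPM in flox/+. Atp8b1, a phospholipid flippase, ran from 0.0249 to 12.5 CPM against 21.3 to 40.4 CPM.

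Genes of DNA ends, replication and telomeres contributed 3 members. Tert, the catalytic subunit of telomerase (chr13:73626911-73649843, plus strand), had 0, 0 and 0.0996 CPM in flox/flox, 0 counts in all flox/N211A libraries, and 26.6, 1.41, 11.7 and 1.61 CPM in flox/+. Both defects were at or near 0 and flox/+ spread widely, with an edgeR adjusted p of 0.442 for both defects together. Aplf, a scaffold that joins the ligases of end joining and single-strand break repair (chr6:87628424-87672193, minus strand), had 0, 0 and 0.623 CPM in flox/flox, 0, 0 and 1.54 CPM in flox/N211A, and 19.99, 3.21, 14.4 and 3.72 CPM in flox/+. The nearest libraries differed 2.08-fold (edgeR adjusted p = 0.635). Pcna, the sliding clamp of replication and of long-patch base excision repair, had 56.5, 60.4 and 55.1 CPM in flox/flox, 44.8, 57.4 and 60.2 CPM in flox/N211A, and 72.0, 94.6, 119 and 90.9 CPM in flox/+. The ranges of the 2 defects overlapped, with log2 fold changes of -0.72 (SE 0.54) in flox/flox and -0.80 (SE 0.54) in flox/N211A, and its adjusted p for both was 0.784 with edgeR.

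Genes that make and process RNA and protein were also among the lower ones. Rpl6, of the large ribosomal subunit (chr5:121204481-121209241, plus strand), had 180, 161 and 209 CPM in flox/flox, 210, 308 and 263 CPM in flox/N211A, and 401, 393, 453 and 622 CPM in flox/+. Its log2 fold change came to -1.10 (SE 0.33, edgeR adjusted p = 0.618), with -1.35 (SE 0.42) in flox/flox and -0.84 (SE 0.41) in flox/N211A. Rps7 of the small subunit ran from 132 to 351 CPM in the defects against 394 to 817 CPM in flox/+, and Rpl10a from 2.08 to 235 CPM against 273 to 440 CPM. Ribosomal protein genes have many near-identical pseudogenes, which can take or lend reads. Bud31, a spliceosome protein (chr5:145140362-145148078, plus strand), had 47.3, 102 and 43.5 CPM in flox/flox, 87.5, 85.3 and 68.8 CPM in flox/N211A, and 160, 172, 208 and 155 CPM in flox/+. Ptcd1, a mitochondrial pentatricopeptide repeat protein whose 3′ end overlaps that of Bud31 on the other strand (chr5:145147514-145167108, minus strand), had 28.5, 58.1 and 27.7 CPM in flox/flox, 51.1, 58.4 and 43.4 CPM in flox/N211A, and 115, 114, 121 and 102 CPM in flox/+. Flox/+ varied little for Ptcd1, at 113 ± 7.96 CPM (SD, n = 4) against 44.5 ± 13.9 CPM (SD, n = 6) in the defects, with a log2 fold change of -1.36 (SE 0.46, edgeR adjusted p = 0.630). The 2 genes share their overlap and are not 2 independent observations where reads fall in it. Mtres1, a mitochondrial transcription rescue factor, ran from 0 to 16.4 CPM in the defects against 28.6 to 44.5 CPM in flox/+. Lrrc47, a leucine-rich repeat protein (chr4:154011731-154021513, plus strand), had 0.282, 0 and 0.149 CPM in flox/flox, 14.2, 13.96 and 16.4 CPM in flox/N211A, and 44.9, 31.1, 18.7 and 30.9 CPM in flox/+. Flox/N211A replicate 3 and flox/+ replicate 3 lie close together, while flox/flox was near 0. Smim1 overlaps Lrrc47 on the other strand. Tceal9, of a family related to the elongation factor TFIIS, ran from 96.6 to 421 CPM in the defects against 488 to 977 CPM in flox/+. The long noncoding RNA Pvt1, transcribed next to Myc, ran from 0 to 3.43 CPM against 6.47 to 23.3 CPM. Of the 18 genes chosen by the smallest p or the widest gap in this direction, which leave out Pcna, Rps7 and Rpl10a, DESeq2 called 9, on the same counts that chose them. Over all genes tested it called 229 of 13464 in either direction, and the smaller number called lower is given above.

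**Figure D3:**
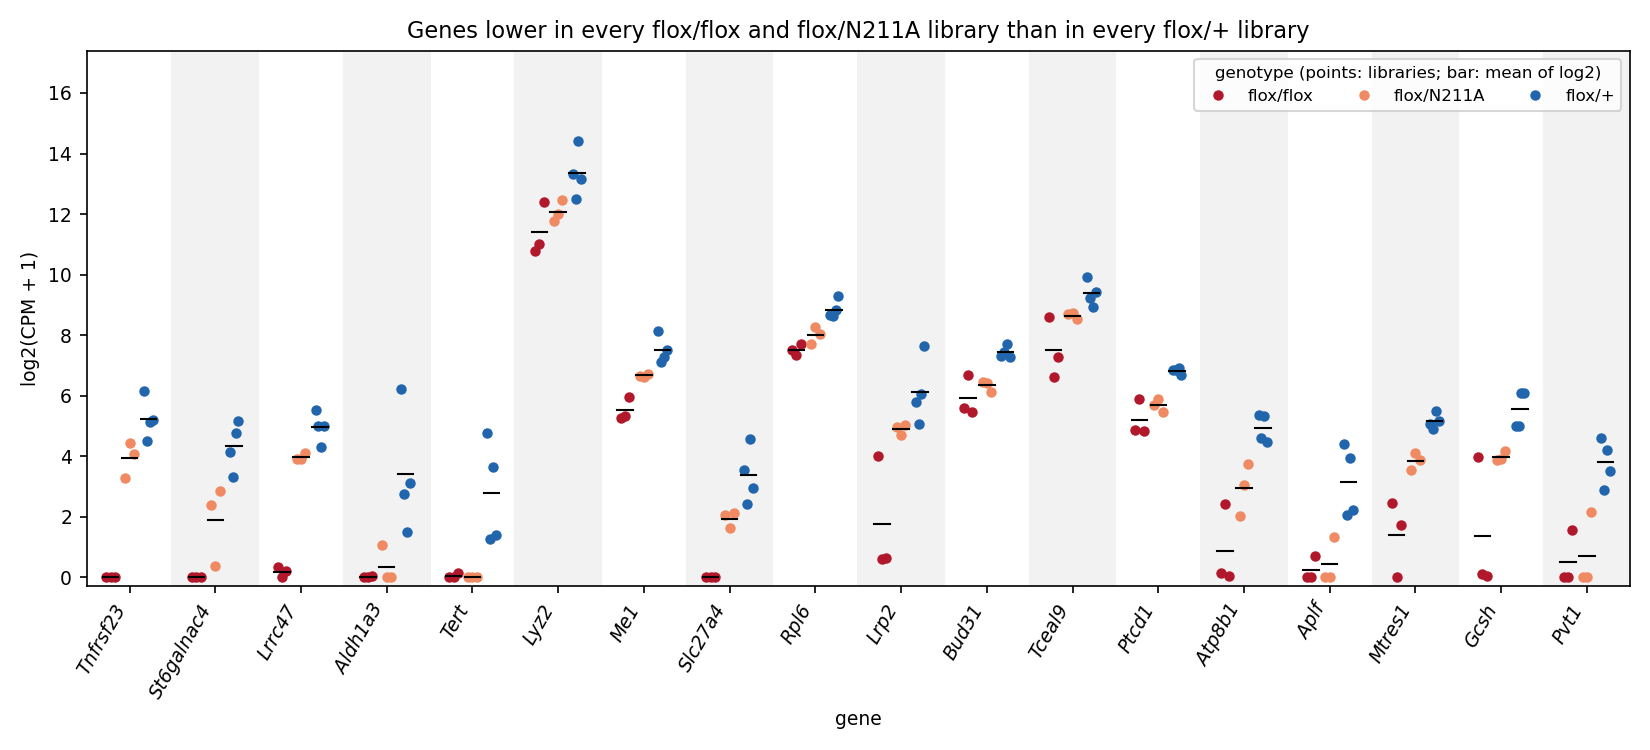
Level of the 18 genes named for standing lower in every defect library, as log2(CPM + 1) in each library, with flox/flox, flox/N211A and flox/+ from left to right for each gene and a bar for the mean of the log2 values. Flox/flox lies at 0 for Tnfrsf23, St6galnac4 and Slc27a4 with flox/N211A in between, both defects lie at or near 0 for Tert and Aplf, and Bud31, Ptcd1 and Rpl6 show narrow ranges in flox/+.

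Flox/flox stood farther from flox/+ than flox/N211A did over the 150 separated genes. For the 70 higher genes the median difference in mean log2 CPM was 2.13 in flox/flox and 1.26 in flox/N211A, and for the 80 lower genes it was -3.03 and -1.06. These differences share the flox/+ libraries and describe genes chosen with them. Set against each other, the 3 flox/flox libraries lay wholly above the 3 flox/N211A libraries for 27 of the 70 higher genes, where the same held for 5.61% of all genes. They lay wholly below for 24 of the 80 lower genes, where the same held for 13% of all genes. The reverse order occurred for 0 of the 70, beside 13% of all genes, and for 0 of the 80, beside 5.61% of all genes. The 150 genes were chosen for lying beyond flox/+ in all 6 defect libraries, which itself bears on this order. The genes behind the shares were not chosen so, and no conclusion is drawn from the counts beside them. The test between the 2 defects gave an unadjusted edgeR p under 0.05 for 20 of the 150 genes, 11 higher and 9 lower, against 12% of all genes, and 0 genes of the table passed after adjustment. Over all genes that unadjusted p was met by 4.42% with flox/flox higher and 7.63% with flox/flox lower. Against flox/+, which both share, flox/flox met it for 5.73% of genes higher and 8.7% lower, and flox/N211A for 0.728% higher and 0.706% lower, with 0 called by edgeR in either after adjustment. Flox/flox replicates 2 and 3 are the libraries that stood apart, and their part in this order was not tested.

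Gene lists give the wider picture. Of 38 lists, chosen with earlier results of these data known, 644 genes were tested, and each list is described by its counts and by the median over members of the difference in mean log2 CPM of both defects minus flox/+. Over all genes tested that median was -0.24, with 5566 of 13464 above 0, and it was -0.62 in flox/flox and 0.15 in flox/N211A. A mean of log2 values weighs libraries with 0 counts heavily, and by the log2 ratio of mean CPM in place of it the median over all genes was 0.10. By that ratio 7 lists turned positive, namely alveolar type I (0.34), endothelial (0.37), G-quadruplex helicases and binders (0.11), p53 targets (0.17), apoptosis regulators (0.12), antioxidant genes (0.024) and lipid and sterol synthesis (0.14), and 1 turned negative, cardiac and smooth muscle (-0.44). Base excision repair came to -0.19, interferon-stimulated genes to -0.19 and serine and one-carbon genes to -1.17 by that ratio. Genes of airway cells had positive medians. For ciliated cells, 16 of 16 genes measured had a difference above 0 (median 0.92), and 6 had an unadjusted edgeR p under 0.05, where 2.21% of all genes did in that direction. Of the 14 club cell genes, 12 lay above 0 with a median of 1.05, and 3 had such a p. None of either list was called by edgeR. Foxj1, the transcription factor that directs the building of motile cilia, had 100.04, 65.5 and 356 CPM in flox/flox, 62.5, 28.3 and 50.5 CPM in flox/N211A, and 31.2, 15.98, 22.2 and 6.89 CPM in flox/+. Flox/N211A replicate 2 lay below flox/+ replicate 1, so it did not separate, and it was chosen after its values were seen. The summed ciliated level was 6939, 13155 and 12042 CPM in flox/flox, 5043, 4551 and 3776 CPM in flox/N211A, and 1893, 4837, 6587 and 3446 CPM in flox/+. All flox/flox libraries were above all flox/+ libraries, while flox/N211A lay within the flox/+ range. The summed club level was 218320, 100290 and 67974 CPM in flox/flox, 122210, 258670 and 220440 CPM in flox/N211A, and 98819, 166510, 60512 and 33838 CPM in flox/+, with overlap in both directions.

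Alveolar type II genes lay on the other side. Of 20, 19 lay below 0, the median was -1.40, and 8 had an unadjusted edgeR p under 0.05, where 5.01% of all genes did in that direction. The median was -2.13 in flox/flox and -0.36 in flox/N211A. Their summed level was 36692, 33323 and 29319 CPM in flox/flox, 57634, 60241 and 66290 CPM in flox/N211A, and 133770, 58081, 211790 and 147920 CPM in flox/+. Only flox/+ replicate 2 fell within the range of the defects, and it kept the sums from separating. Lyz2 was the 1 member that separated every library. Sftpc, surfactant protein C, had 21068, 17965 and 11531 CPM in flox/flox, 34061, 36905 and 37466 CPM in flox/N211A, and 86301, 33544, 145740 and 106120 CPM in flox/+. The low flox/+ library was again replicate 2, and the log2 fold change of -1.91 (SE 0.43) had an edgeR adjusted p of 0.424. Sftpc was chosen after its values were seen. Transitional alveolar genes, keratins and claudins of cells leaving the type II state, had a median of -0.93, with a single one of 17 above 0, and alveolar type I genes one of -0.64 that turned positive without flox/flox replicates 2 and 3 (0.68). In bulk libraries fewer cells of a type and less RNA per cell cannot be told apart, and the part that the mixture of airway and alveolar cells plays in the genes named above was not tested.

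**Figure D4:**
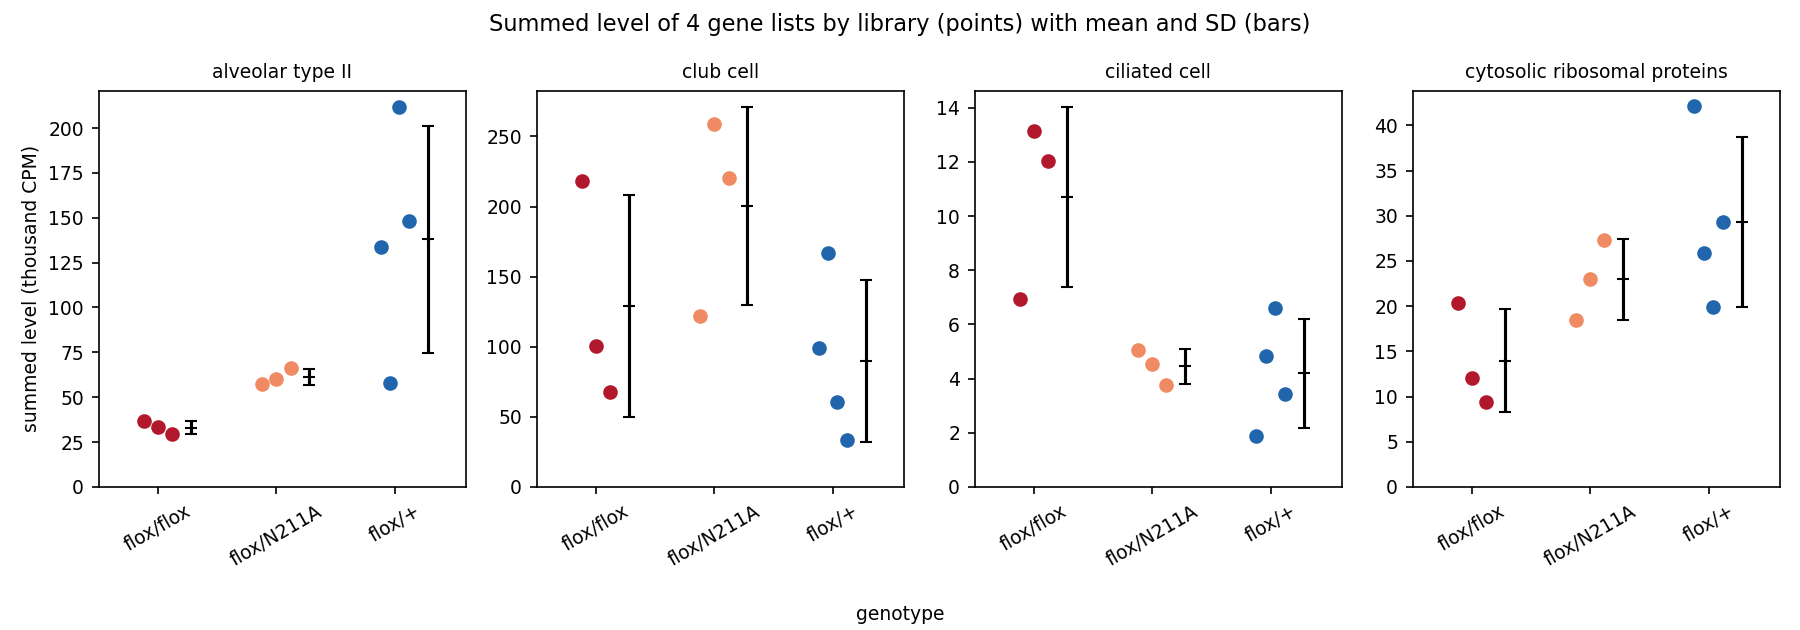
Summed CPM of the alveolar type II, club cell, ciliated cell and cytosolic ribosomal protein lists in each library, with flox/flox, flox/N211A and flox/+ from left to right and bars for mean ± SD. The alveolar type II sums of the 6 defect libraries lie below those of flox/+ replicates 1, 3 and 4 but not below flox/+ replicate 2 in every case, and the other 3 lists overlap between the defects and flox/+.

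Markers of other cell types were low or uneven. Fibroblast and matrix genes had the highest median, 2.17, over the 9 of 17 that were tested, with 7 above 0, but their summed level was 1621, 56.7 and 1565 CPM in flox/flox, 984, 963 and 279 CPM in flox/N211A and 547, 191, 438 and 339 CPM in flox/+. Gsn, the actin-severing gelsolin, which epithelial cells also express, made up most of the flox/flox sums at 1299, 35.4 and 1563 CPM, while the collagen gene Col1a2 had at most 0.188 CPM in flox/flox, 2.38 to 18.7 CPM in flox/N211A and at most 0.0749 CPM in flox/+. Both were chosen after their values were seen. Leukocyte markers, 7 of 18 tested, summed to 59.0 to 300.3 CPM in the defects against 12.1 to 380 CPM in flox/+ and had a median of -0.98. Endothelial markers, 11 of 12 tested, summed to 3.99 to 217 CPM against 22.1 to 110 CPM, with a median of -0.085. Erythroid genes ran from 0.841 to 2948 CPM in sum in the defects and from 45.9 to 3016 CPM in flox/+ (median -0.70), and cardiac and smooth muscle genes from 31.3 to 89.9 CPM and 43.0 to 144 CPM (median 0.11). The part of these markers in the named genes was not tested.

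Repair, replication and ribosome lists had negative medians, and their summed levels overlapped between the defects and flox/+. The medians were lower in flox/flox than in flox/N211A, beside -0.62 and 0.15 over all genes. In that order base excision repair had -1.44 and -0.074, double-strand break repair -1.06 and -0.11, and cell cycle genes -1.08 and -0.055. G-quadruplex helicases and binders had -0.39 and -0.065, and oncogenes with G-quadruplex promoters -1.36 and 0.22. Cytosolic ribosomal proteins had -1.11 and -0.23, and ribosome biogenesis -1.32 and -0.24. Base excision and single-strand break repair, the pathway of APE1, had a median of -0.77 with 6 of 24 above 0. Of the 24, 0 were lower at an adjusted edgeR p under 0.05. At an unadjusted p under 0.05, 2 of the 24 were lower, beside 5.01% of all genes. The summed level of this list was 479 to 944 CPM in the defects and 571 to 804 CPM in flox/+, so the groups overlapped. Aplf and Pcna were its 2 members that separated every library. Double-strand break repair had -0.73 (7 of 23 above 0) and turned to 0.21 without flox/flox replicates 2 and 3. Its summed level was 516 ± 214 CPM in the defects (SD, n = 6) and 409 ± 12.6 CPM in flox/+ (SD, n = 4), on the other side from its median. Cell cycle genes had -0.51 (4 of 22 above 0), G-quadruplex helicases and binders -0.31 (6 of 19, with a summed level of 3192 ± 1242 CPM in the defects and 2948 ± 338 CPM in flox/+) and oncogenes with G-quadruplex promoters -0.65 (5 of 14). Of the 50 cytosolic ribosomal proteins 1 lay above 0 and the median was -0.64. At an unadjusted edgeR p under 0.05, 13 of the 50 were lower, beside 5.01% of all genes, and 0 were called. Their sums were 9447 to 27356 CPM in the defects and 19960 to 42155 CPM in flox/+. Ribosome biogenesis had -0.53 (8 of 22 above 0) and the aminoacyl-tRNA synthetases -0.44 (7 of 19).

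Signalling and immune lists ran in both directions. The TNF ligands and receptors had a median of -1.10 (3 of 14 above 0), with 1 member called, Tnfsf9, and 1 that separated every library, Tnfrsf23. NF-kB targets had -1.01 (4 of 20) and interferon-stimulated genes -1.02 (5 of 20). In flox/N211A their medians were 0.026 and 0.19, beside 0.15 over all genes. MHC class I genes had 0.57 (11 of 15 above 0) and MHC class II genes -0.37 (3 of 10). The MAPK output list had -0.65 (2 of 18), the AP-1 and immediate early list -0.29 (5 of 18), the EGF receptor family -0.12 (5 of 12), p53 targets -0.14 (9 of 23) and apoptosis regulators -0.42 (8 of 21).

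Metabolic and stress lists completed the set. Serine and one-carbon genes had the lowest median of all lists, -1.81, with 2 of 16 above 0. At an unadjusted edgeR p under 0.05, 4 of the 16 were lower, beside 5.01% of all genes. The median was -2.995 in flox/flox and -0.26 in flox/N211A, beside -0.62 and 0.15 over all genes. Their summed level was 252, 207 and 794 CPM in flox/flox, 371, 339 and 263 CPM in flox/N211A, and 293, 363, 301 and 657 CPM in flox/+. Flox/flox replicate 3 had the highest sum of the 10 libraries, so the sum did not follow the median. The 4 chosen for their p were Psat1, Phgdh and Psph, the 3 steps of serine synthesis, and Mthfd2 of the mitochondrial folate cycle. Psat1 had 0.0941, 0 and 0 CPM in flox/flox, 18.7, 41.3 and 18.0 CPM in flox/N211A, and 19.9, 15.5, 7.68 and 67.4 CPM in flox/+, which shows flox/N211A within the range of flox/+. Polyamine genes had -0.82 (2 of 12 above 0), the integrated stress response -0.56 (6 of 18), the unfolded protein response 0.23 (11 of 17), lysosome genes -0.41 (8 of 27), glycolysis and hypoxia genes -0.40 (7 of 22), oxidative phosphorylation genes -0.26 (5 of 27), lipid and sterol synthesis genes -0.23 (8 of 24) and antioxidant genes -0.18 (10 of 25). Over 18 alternatives 4 lists kept a positive median, namely fibroblast, club cell, ciliated cell and MHC class I, 20 kept a negative one and 14 changed sign at least once. The sum of no list separated the 6 defect libraries from flox/+.

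**Figure D5:**
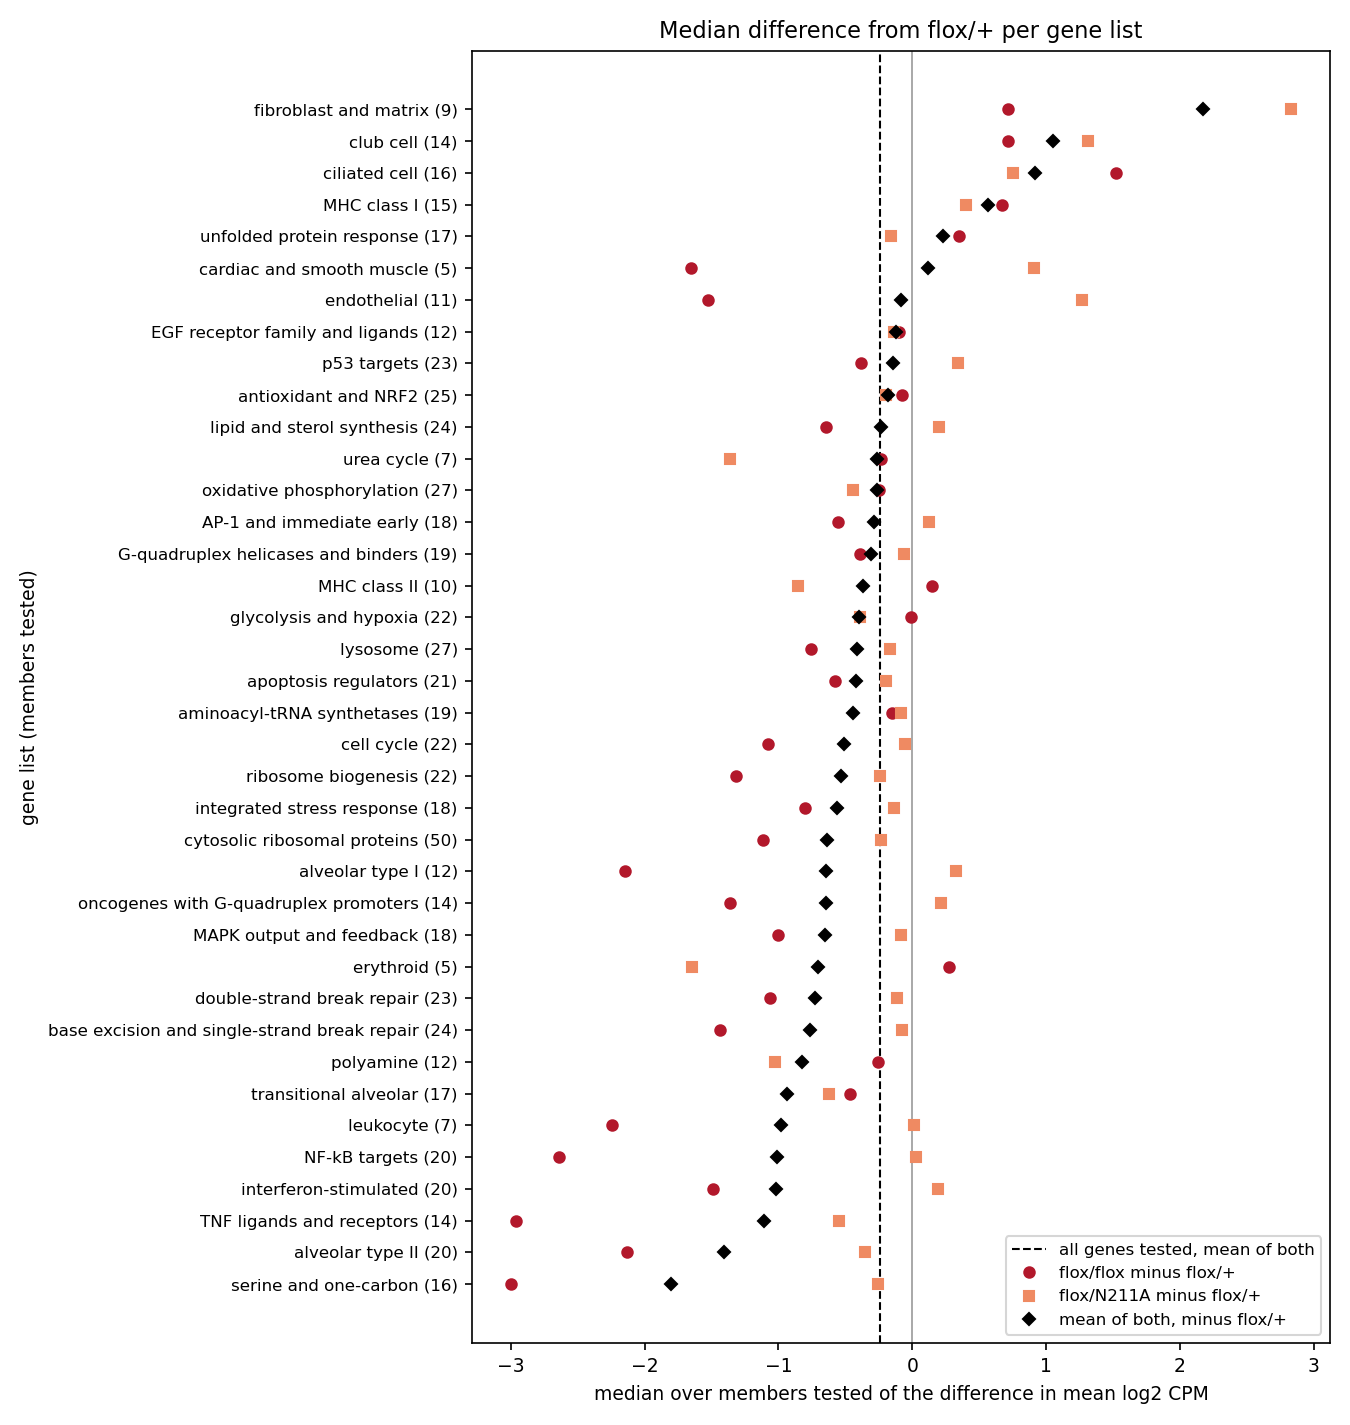
Median over the members tested of the difference in mean log2 CPM from flox/+ for each of 38 lists, shown for flox/flox (circles), flox/N211A (squares) and the mean of both (diamonds), with a dashed line at -0.24, the value for all genes tested. The airway lists, MHC class I and the fibroblast and matrix list lie right of 0 in both defects. Most other lists lie left of 0, as all genes do in flox/flox (-0.62) but not in flox/N211A (0.15).

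The urea cycle, which the series title names, was read member by member. It turns ammonia into urea in the liver, and in other tissues its enzymes make and break down arginine. Of 9 genes 7 were tested, 3 lay above 0, the median was -0.26 and 0 separated every library. Arg1, the cytosolic arginase, was at 0 in every flox/flox library and had 3.61, 0 and 0.841 CPM in flox/N211A, and 19.1, 4.84, 2.65 and 86.6 CPM in flox/+. Flox/N211A replicate 1 stood above flox/+ replicate 3, so the groups touched, and the test of both defects gave an edgeR adjusted p of 0.424. Flox/flox was at least 138-fold below flox/+. Arg2, the mitochondrial arginase, had 41.1, 81.0 and 47.1 CPM in flox/flox, 66.2, 25.9 and 65.6 CPM in flox/N211A, and 81.2, 70.2, 222 and 253 CPM in flox/+. Flox/flox replicate 2 alone kept it from separating, and its log2 fold change came to -1.52 (SE 0.51, edgeR adjusted p = 0.630), with -1.47 (SE 0.64) in flox/flox and -1.58 (SE 0.64) in flox/N211A. Vti1b overlaps Arg2 on the other strand. Ass1, which joins citrulline and aspartate, had 5.74, 35.0 and 110 CPM in flox/flox, 18.3, 3.54 and 13.8 CPM in flox/N211A, and 2.77, 2.45, 14.2 and 1.999 CPM in flox/+, with overlap through flox/+ replicate 3 (log2 fold change 2.19, SE 1.12, edgeR adjusted p = 0.727). Asl, the lyase that follows, ran from 4.25 to 109 CPM in the defects against 3.14 to 76.3 CPM in flox/+. Nags had 1.54 CPM in 1 of the 6 defect libraries and 0 in the other 5, against 0 to 6.96 CPM in flox/+. The carriers Slc25a13 and Slc25a15 ran from 0 to 42.2 CPM and 0.598 to 12.0 CPM in the defects, against 0.861 to 37.1 CPM and 0 to 25.4 CPM in flox/+.

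Promoters of the separated genes were searched for runs of G, since the series title names DNA G-quadruplexes, structures into which G-rich sequence can fold. The motif was GGG 4 times, each run of at least 3 G, with 1 to 7 bases of any kind between runs, on either strand. Promoters were those of RefSeq on GRCm38.p6, from 250 bases before to 50 bases after each start, and 54 of the 70 higher genes and 68 of the 80 lower genes had 1 or more. The motif was found in 18 of 70 promoters of higher genes (25.7%) and 23 of 76 of lower genes (30.3%), beside 3599 of 13467 promoters of all genes tested (26.7%). The shares on both sides are near that of all genes. Among the named genes with a promoter it lay in 1 of 14 that stood higher, Gas6, and in 8 of 15 that stood lower. Counted by gene, the share with the motif was 31.5% of the separated higher genes, 33.8% of the separated lower genes and 30.3% of all genes tested, and no contrast is read from the few named genes. A match says that these letters are present and not that a structure forms. The promoters of Gas6 and of 3 of the lower genes are printed to show the runs themselves, which capitals mark together with the bases between them.
Gas6: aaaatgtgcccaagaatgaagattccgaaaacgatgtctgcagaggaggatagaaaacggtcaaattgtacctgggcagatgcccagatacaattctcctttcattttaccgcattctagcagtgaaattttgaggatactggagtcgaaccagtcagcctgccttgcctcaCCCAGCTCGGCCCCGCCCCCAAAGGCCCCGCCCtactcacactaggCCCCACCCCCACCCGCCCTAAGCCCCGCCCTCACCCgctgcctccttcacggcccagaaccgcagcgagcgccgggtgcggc
St6galnac4: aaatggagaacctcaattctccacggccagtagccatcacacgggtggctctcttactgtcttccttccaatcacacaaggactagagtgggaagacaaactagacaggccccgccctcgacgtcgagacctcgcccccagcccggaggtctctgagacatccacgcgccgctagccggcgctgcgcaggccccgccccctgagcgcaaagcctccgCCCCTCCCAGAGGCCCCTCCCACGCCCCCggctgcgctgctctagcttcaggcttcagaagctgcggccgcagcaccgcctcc
Lrrc47: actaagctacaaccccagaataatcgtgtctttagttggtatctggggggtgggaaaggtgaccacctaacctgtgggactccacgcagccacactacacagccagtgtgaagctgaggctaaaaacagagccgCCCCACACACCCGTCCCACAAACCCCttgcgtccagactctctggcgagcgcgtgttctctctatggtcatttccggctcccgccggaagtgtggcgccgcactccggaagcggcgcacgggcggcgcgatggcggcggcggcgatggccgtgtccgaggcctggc
Rpl6: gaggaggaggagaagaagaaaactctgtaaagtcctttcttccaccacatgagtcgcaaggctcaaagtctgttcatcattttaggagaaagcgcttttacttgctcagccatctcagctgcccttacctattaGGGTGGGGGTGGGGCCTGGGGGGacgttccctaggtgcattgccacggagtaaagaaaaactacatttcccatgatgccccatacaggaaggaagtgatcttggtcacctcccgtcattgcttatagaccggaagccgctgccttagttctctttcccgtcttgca
They lie at chr8:13494486-13494785 (minus strand, Gas6), chr2:32586828-32587127 (plus, St6galnac4), chr4:154011553-154011852 (plus, Lrrc47) and chr5:121204251-121204550 (plus, Rpl6), each read 5′ to 3′ in the direction of the gene. In Rpl6 the G runs lie on the strand shown, and in Gas6, St6galnac4 and Lrrc47 on the other, where they appear as C. The runs of Gas6 and St6galnac4 lie nearer the start of the gene than those of Lrrc47 and Rpl6. Beside these, Rpl6 and Lrrc47 lay lower in every defect library and Gas6 higher, as given above.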

How the data were processed

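RNA of 10 mouse lung libraries was analysed from the raw read counts per gene that the authors deposited, as whole numbers with no normalization. Per the submitters' processing notes, Trim Galore 0.5.0, HISAT2 2.1.0, featureCounts 1.6.4, DESeq2 and the build mm10 were used. No source used here states which annotation or strand setting was used, or how reads with several matches were handled, and genes with close copies or an overlapping partner are uncertain to that extent.

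Counts were filtered with filterByExpr, scaled by TMM and fitted with edgeR 4.0.16 in R 4.3.3, with the 3 genotypes as groups and quasi-likelihood tests. The contrast was the mean of the flox/flox and flox/N211A effects minus flox/+, with Benjamini-Hochberg adjustment over all genes tested and a threshold of 0.05. The fit was tested on simulated data. CPM are TMM-scaled, and list medians use log2 CPM with a prior count of 2. DESeq2 1.42.0 and limma 3.58.1 (voom) were alternatives, with other scalings, filters and added terms, and with libraries left out. No blank or summary row entered the tests, and all 10 columns were matched to samples by their labels.

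The genes named are Apex1, the urea cycle list, and per direction the 12 separated genes with the smallest p and the 8 with the widest gap, with 10 CPM or more as the mean of the 6 or of the 4 libraries and without clone names, Xist or Y-linked genes. Up to 3 separated members of each list are named as well, while the 2 most abundant members that the rule adds for lists without one are not printed. Genes named after their values were seen are marked so. The genotypes compared and the lists were chosen with earlier results of these data known. Coordinates are from GENCODE M21 on GRCm38, in which 24418 of the symbols (96.6%) were found. Libraries of 1 genotype differed by far more than counting error, with a chi-square per degree of freedom of at least 116.1 between any pair.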

Additional observations from a re-analysis of the deposited data

Results flagged for a closer look

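Among 88 groups of 4 libraries, the 50 named genes included, 2 held 1 library far from the others, where chance alone gives about 1 in 20. Only flox/+ has 4 libraries, so flox/flox and flox/N211A were not covered. Aldh1a3 stood at 73.3 CPM in flox/+ replicate 1, against 1.854 to 7.773 CPM in the other 3 flox/+ libraries. Ass1 stood at 14.24 CPM in flox/+ replicate 3, against 1.999 to 2.77 CPM in the other 3 flox/+ libraries.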

How the results depend on the processing

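With 1 gene called with all libraries and settings as described, the count was 39 without a low-count filter, 52 without flox/flox replicates 2 and 3 and 229 with DESeq2. It was 0 with a filter of 10 CPM in 3 libraries, in Xist-positive libraries alone, with voom, with the 6 libraries as 1 group, with the Xist and Y-linked class or the number of genes detected as a term, and at a 2-fold minimum. Leaving out 1 library at a time gave 0 to 65, the highest without flox/flox replicate 1. Same-numbered samples of different genotypes showed little shared deviation (9 same-numbered pairs, correlation of deviations -0.0649 to 0.0976). Whether they were handled together is not known. The fit with the replicate block gave 0 calls and an adjusted p of 0.0634 for Tnfsf9 with edgeR.

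Genes above flox/+ in every library, 70 in the main count, numbered 94 to 219 with 1 library left out, 287 without flox/flox replicates 2 and 3 and 790 in Xist-positive libraries alone. Those below, 80 in the main count, numbered 106 to 214, 252 and 609 in the same settings. Fewer libraries make separation easier by construction. Of 1091 values of the 50 named genes under alternatives, 5 reversed. The log2 fold change of Asl, -0.68 with all libraries and settings as described, was 0.072 without flox/+ replicate 3, 0.0797 with voom and 0.279 with the replicate block, and ran from -1.10 to 0.072 with 1 library left out. That of Slc25a15, -0.92 in the main test, was 0.932 without flox/+ replicate 3 and 2.36 with voom, and ran from -2.26 to 0.932 with 1 library left out. The causes were not tested. Genes with few counts carry the most counting error.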
